A study of Mus musculus with 3 samples.

Results

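Single L929 cells that served as controls were ranked by how much mitotic RNA they held, and the 4 with the most were set against the 4 with the least. L929 is a mouse fibroblast line, labelled as connective tissue. The score was the summed level of 10 genes of mitosis (Mki67, Top2a, Ccnb1, Ccnb2, Cdk1, Aurka, Plk1, Cenpf, Cdc20 and Ube2c) in counts per 1000000 (CPM), and these 10 genes are described once and then left out. The comparison holds 8 of the 20 columns of the CBTi-seq count table: 4 with high mitotic RNA, which are control columns 7, 9, 6 and 2, and 4 with low mitotic RNA, which are control columns 10, 8, 3 and 4. Values of the high and the low columns are given below in these orders. Control column 5 lay in the middle and was not compared, and control column 1 was left out as shallow, with 41570 counts.

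The study set L929 cells in which Rrm2 was knocked down beside control cells; Rrm2 is the small subunit of ribonucleotide reductase. Per the labels' protocols, single cells were drawn into a capillary, reverse transcription started at the poly(A) tail with oligo dT and used template switching, and 20 PCR cycles followed. All 20 columns, 10 named control and 10 named knock, belong to 1 sample. They are called cells here after that protocol text. Sources used here do not say what the control cells received, how long they had grown or whether their cycle had been synchronised, and both groups carry the same label.

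The columns are not replicates, and the groups were picked by a score measured in them. No difference was therefore tested, and no p-value is given. Ratios are log2 ratios of the CPM of summed counts, high over low columns, with exact conditional 95% intervals, and levels have exact Poisson 95% intervals. Both intervals hold counting error alone, without the spread among cells. The second description used throughout is whether all 4 columns of a group lay beyond all 4 of the other, called apart below.

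Genes of the cell cycle are transcribed in waves. Genes of DNA replication rise towards S phase under the E2F factors, and genes of mitosis rise later, in G2, when the MuvB complex with B-MYB and FOXM1 binds at a promoter element called CHR while NF-Y binds CCAAT boxes. Mitotic RNA is then lost as cells divide, so cells taken from a growing culture differ in it by their place in the cycle.

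Promoters of 3 genes with high ratios, picked because they hold the letters of CHR, are printed below. They are Knl1, a kinetochore scaffold, Spdl1, which recruits dynein to kinetochores, and Ckap2l, a spindle protein. Each runs from 250 bases before to 50 after the start of the gene, in RefSeq on GRCm38.p6, and is written along the strand of its gene. Capitals mark the core of the CHR element (TTTGAA, or TTCAAA on the other strand) and the CCAAT box (CCAAT, or ATTGG on the other strand). They were taken from the 12 highest ratios of genes apart at a mean of 50 CPM or more. That mean includes the high columns. Over the low columns alone all 12 lay under 50 CPM, from 15.7 CPM for Troap to 47.1 CPM for Fam83d, so they passed the limit through their high columns. In order of ratio, they are the first 3 on a G2 and mitosis list whose promoter holds the CHR letters and stands in the table used. Prr11 had a higher ratio and the CHR letters, but it was on none of the lists and was passed over. The windows of Troap, Kif18a, Nusap1, Sapcd2 and Sgo2a, also among the 12, did not hold the CHR letters. Genes of lower level with higher ratios are described further on.
Knl1, chr2:119046869-119047168, plus strand: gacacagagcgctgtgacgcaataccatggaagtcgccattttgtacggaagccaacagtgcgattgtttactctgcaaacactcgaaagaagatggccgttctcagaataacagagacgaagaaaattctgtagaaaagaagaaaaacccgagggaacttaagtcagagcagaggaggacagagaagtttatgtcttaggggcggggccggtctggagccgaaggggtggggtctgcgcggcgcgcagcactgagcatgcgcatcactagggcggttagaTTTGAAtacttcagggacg
Spdl1, chr11:34833592-34833891, minus strand: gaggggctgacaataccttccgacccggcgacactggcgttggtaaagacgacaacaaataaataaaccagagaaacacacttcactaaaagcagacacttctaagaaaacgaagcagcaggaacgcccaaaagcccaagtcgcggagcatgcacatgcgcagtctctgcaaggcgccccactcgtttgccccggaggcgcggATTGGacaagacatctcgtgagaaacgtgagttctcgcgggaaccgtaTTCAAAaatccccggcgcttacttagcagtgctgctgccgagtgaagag
Ckap2l, chr2:129297163-129297462, minus strand: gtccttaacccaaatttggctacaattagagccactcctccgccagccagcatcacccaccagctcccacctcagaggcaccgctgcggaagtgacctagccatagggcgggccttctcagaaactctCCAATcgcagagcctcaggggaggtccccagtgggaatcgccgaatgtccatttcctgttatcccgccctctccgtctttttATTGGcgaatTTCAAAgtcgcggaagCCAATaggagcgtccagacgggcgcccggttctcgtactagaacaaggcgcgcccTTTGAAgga

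The Knl1 window held the CHR letters 1 time and no CCAAT, the Spdl1 window held each 1 time, and the Ckap2l window held CHR 2 times and CCAAT 3 times. Of the 117 genes of the G2 and mitosis lists with a promoter, 59 held the CHR letters on either strand (50.4%), and 9 of 58 of the S phase list did (15.5%). The share was 12.1% of the genes at 50 CPM or more, each counted once at its first promoter, and 17.9% of all 32851 promoters in the table. A CCAAT box stood in a like share of both lists, in 78 of the 117 (66.7%) and 37 of the 58 (63.8%), beside 39.5% of genes at 50 CPM or more and 37.4% of all promoters. Both stood in 46 of the 117 (39.3%) and 6 of the 58 (10.3%), beside 5.42% and 6.95%. For E2F the letters TTTCCCGC, TTTGGCGC and TTTCGCGC were searched on both strands. They stood in 20 of 58 genes of the S phase list (34.5%) and in 12 of the 117 (10.3%), beside 4.20% of genes at 50 CPM or more and 1.84% of all promoters. Windows of the same length were compared throughout, and a match is a match of letters only. Each word was searched on its own, so matches of different words may share letters at their ends.

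The score ran from 3665 to 615 CPM. It was 3665, 3593, 3505 and 3022 CPM in high columns 7, 9, 6 and 2, against 2326, 1827, 651 and 615 CPM in low columns 10, 8, 3 and 4. The middle column 5 stood at 2482 CPM, between the last of the high group, column 2 at 3022 CPM, and the first of the low group, column 10 at 2326 CPM. Columns 3 and 4 stood apart from the other low columns by their score, and results below are also given without them. As a description of the choice, 7 of the 10 score genes were apart, and their log2 ratios ran from 0.75 for Ccnb2 to 2.40 for Plk1.

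**Figure D1:**
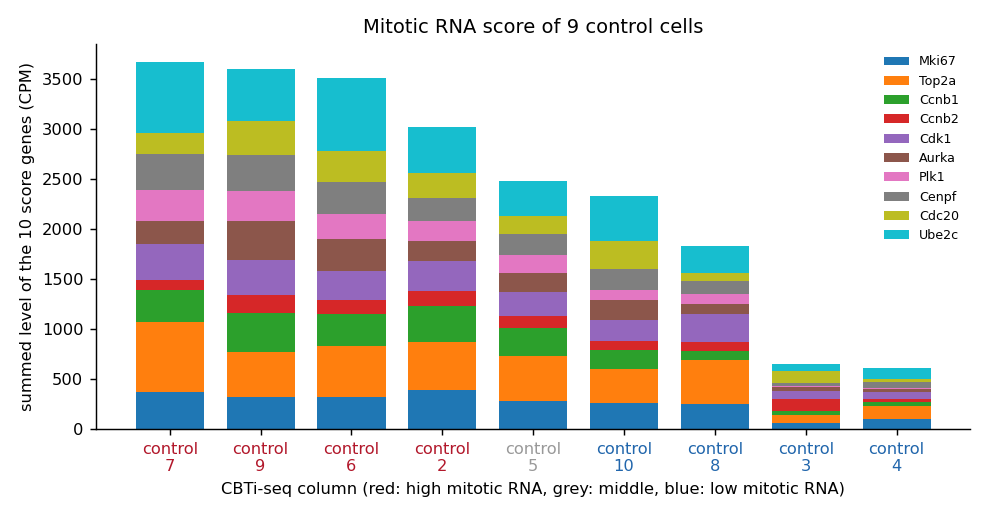
Bars give the summed CPM of the 10 score genes in each of 9 control columns of CBTi-seq, stacked by gene, with high mitotic RNA at the left, the middle column in grey and low mitotic RNA at the right. The score falls from 3665 CPM in column 7 to 615 CPM in column 4, with a step between column 8 and column 3.

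The columns held 237639 to 846819 counts in the high group and 276231 to 508312 in the low group, 1682296 and 1527191 in sum. They had a count for 12010 to 14154 genes in the high columns and for 12517 to 14087 in the low columns. Column 9 of the high group and column 3 of the low group were the deepest of each. A count of 0 allows a level of up to 3 counts, which is 3.54 to 12.6 CPM in the high columns and 5.90 to 10.9 CPM in the low columns. No gene had more than 623 counts in any of these columns, and the highest count was between 534 and 623 in all of them, although their totals differed more than 3-fold. Fibroblast markers summed to 1450 to 2285 CPM in the high columns and 1533 to 2465 CPM in the low columns, from 7 of 10 markers with a row in the table; Thy1, Dcn and Lum had none. Endothelial markers had no row at all, 3 of 6 epithelial markers had one and summed to at most 14.5 CPM, and 4 of 8 macrophage markers had one, with none for Ptprc, Adgre1, Fcgr1 or C1qa. The macrophage sum overlapped between the groups, at 32.8, 28.3, 21.0 and 142 CPM in the high columns, against 81.2, 24.1, 25.6 and 181 CPM in the low columns, and Cd68 gave 117 CPM of it in column 2 and 163 CPM in column 4.

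The high columns held more RNA of spindle, kinetochore and chromosome genes well beyond the score, and less of several genes of replication licensing. Of 5261 genes at a mean of 50 CPM or more over the 9 columns, 142 (2.70%) were at least 2-fold higher in the high columns and 79 (1.50%) at least 2-fold lower. With TMM factors these counts were 105 and 116, and with median-of-ratios factors 99 and 129. All 4 high columns lay above all 4 low columns for 142 genes (2.70%) and below them for 57 (1.08%). Both descriptions held for 58 genes that were higher (1.10%) and for 13 that were lower (0.247%). The median log2 ratio of all 5261 genes was 0.03. How many genes an arbitrary split of the same columns would set apart was not counted. Some genes come out apart in any split by chance. Neither share of genes apart can therefore be read by itself as an excess, and a single gene may be apart through the split alone.

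Of the 142 genes apart and higher, 40 belonged to the G2 and mitosis lists (28.2%), none to the S phase list and 96 to no list. Of the 57 genes apart and lower, none belonged to the G2 and mitosis lists, 8 to the S phase list and 46 to no list. For scale, the G2 and mitosis lists held 144 and the S phase list 70 of the 8450 genes at a mean of 20 CPM or more. The 142 and the 57 were counted at 50 CPM or more, so this scale is not of the same genes. Lists are described over members at 20 CPM or more, where 208 of 8450 genes (2.46%) were apart and higher, 99 (1.17%) apart and lower, 432 (5.11%) 2-fold higher and 325 (3.85%) 2-fold lower. This limit is a mean over the 9 columns too. Of the named genes described below, Troap, Kif18a, Pif1, Mastl, Depdc1a, Kif14, Cenpl and Plk3 lay under it over the low columns. Ung, Cdt1, Ikbip and Cxcl1 lay under it over the high columns. The limit of 50 CPM was passed in a like way by genes with low ratios. Over the high columns Ikbip lay at 10.1 CPM, Cdt1 at 18.4 CPM and Slc6a9 at 35.1 CPM. Git1 and Hells lay at 38.0 CPM and Mcm4 at 47.0 CPM there. The others of the 12 lowest ratios lay above 50 CPM over the high columns. Of all 8450 genes, 4587 (54.3%) were higher and 3863 lower, to be set beside the counts of members of each list below. Over the G2 and mitosis lists, 134 of 144 members were higher, with a median log2 ratio of 0.98 against 0.04 for all 8450 genes. Of these 144, 49 were apart and higher, none apart and lower, and 71 were at least 2-fold higher. Without columns 3 and 4 the median was 0.61. The lists exclude the score genes, but their genes vary with the score genes through the cycle by what is known of them.

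**Figure D2:**
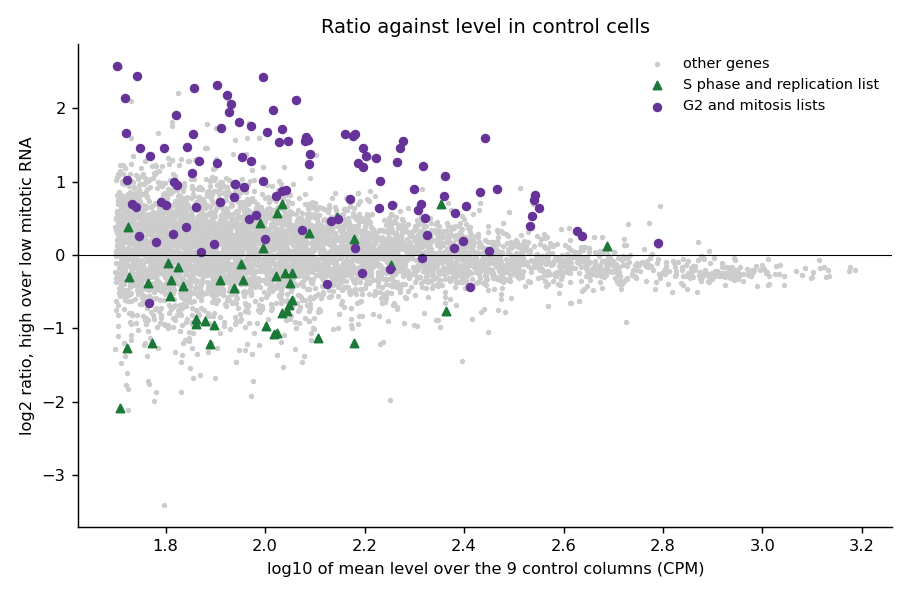
Each point is 1 of the 5261 genes at a mean of 50 CPM or more, with the log10 of its mean level over 9 control columns on the x axis and its log2 ratio, high over low mitotic RNA, on the y axis; green triangles are genes of the S phase list, purple circles those of the G2 and mitosis lists. Most purple circles lie above 0, most green triangles below it, and the ratios of all genes narrow as the level rises.

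The summed level of the G2 and mitosis lists was 21116, 23954, 22412 and 19540.2 CPM in the high columns, against 15882, 15915, 9836 and 8131 CPM in the low columns, with 18631 CPM in the middle column. Both groups were apart in this sum, and in the sum of each of the 4 lists that make it up. Columns 10 and 8 lay closer to the high columns than to columns 3 and 4.

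**Figure D3:**
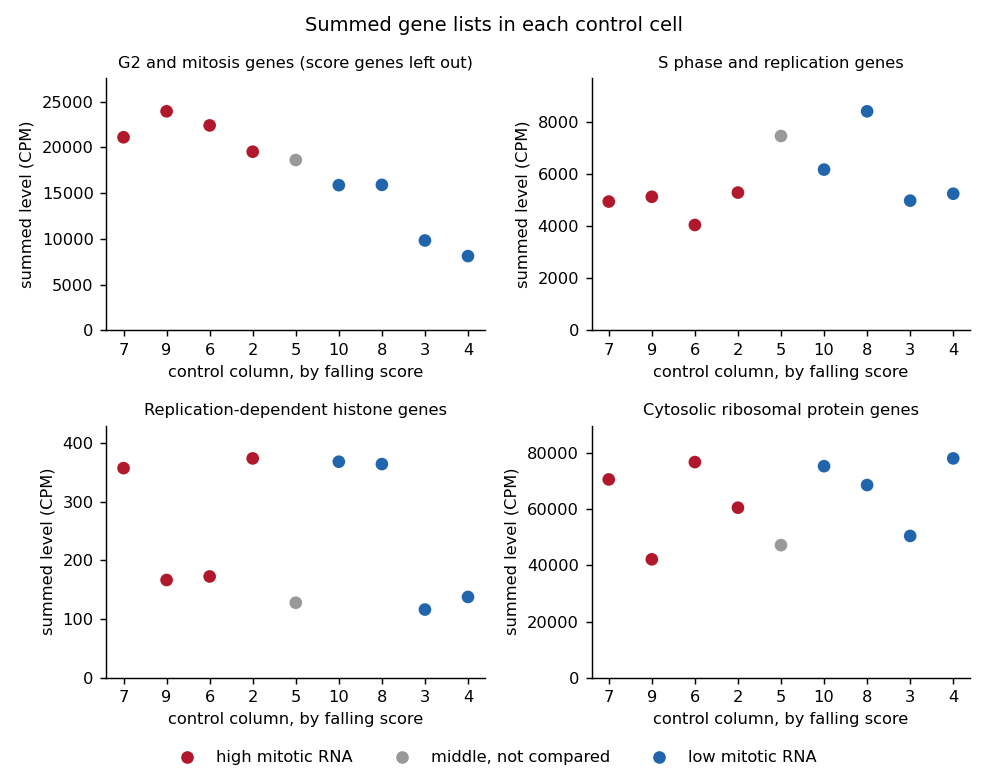
Points give the summed CPM of 4 gene lists in each of 9 control columns, in order of falling score, with high mitotic RNA in red, the middle column in grey and low mitotic RNA in blue. The G2 and mitosis sum is apart between the groups, from 19540 to 23954 CPM against 8131 to 15915 CPM, while the sums of S phase, histone and ribosomal protein genes overlap.

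Among regulators of G2 and mitosis, 28 of 31 members were higher, with a median log2 ratio of 0.86, and 10 were apart. Pif1, a DNA helicase, had 65.6, 109.8, 46.3 and 30.9 CPM in the high columns, against 19.0, 10.7, 0 and 0 CPM in the low columns. All 4 high columns lay above the low columns, columns 3 and 4 had no count of it, and its log2 ratio was 3.45 (2.56 to 4.48). Bora, the cofactor through which Aurora A activates Plk1, had 135, 189, 139 and 142 CPM in the high columns, against 43.3, 77.7, 53.1 and 21.7 CPM in the low columns, with a log2 ratio of 1.68 (1.32 to 2.07). The high columns were apart, and column 9 was the highest. Mastl (Greatwall), the kinase that holds PP2A in check during mitosis, had 32.8, 44.9, 58.9 and 27.8 CPM in the high columns, against 19.0, 24.1, 0 and 14.5 CPM in the low columns, with a log2 ratio of 1.67 (0.93 to 2.46). The ratio of Pif1 was 2.70 without column 9 and 4.51 without column 10. With columns 3 and 4 left out, the ratios were 2.40 for Pif1, 1.44 for Bora and 0.95 for Mastl.

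Ccna2, the cyclin A of S phase and G2, had 281, 384, 319.8 and 352 CPM in the high columns, against 268, 217, 163 and 123 CPM in the low columns, a log2 ratio of 0.86 (0.65 to 1.06). Its columns were apart by a narrow gap, between column 7 and column 10. Cdc25b, which activates Cdk1, had 204, 308, 156 and 167 CPM in the high columns, against 133, 88.4, 31.5 and 72.4 CPM in the low columns, a log2 ratio of 1.65 (1.35 to 1.96). Cdc25a and Cdc25c, of the same family, overlapped with log2 ratios of 0.75 (0.19 to 1.33) and 1.03 (0.53 to 1.54), as did the cyclin Ccnf at 1.73 (1.34 to 2.13). Foxm1, the factor that drives much of this programme, had 117, 172, 105 and 127 CPM in the high columns, against 135, 123, 33.4 and 29.0 CPM in the low columns, and here columns 10 and 8 lay among the high columns. Wee1 and Pkmyt1, the kinases that inhibit Cdk1, had log2 ratios of 0.72 (0.35 to 1.09) and -0.66 (-1.11 to -0.21), and both overlapped. These cyclins, kinases and factors outside the named set were picked after their values were seen.

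Spindle motors and midzone proteins had the highest median of the 4 lists, 1.51, with 35 of 36 members higher, 29 of them at least 2-fold, and 16 apart. Troap, a spindle protein also called tastin, had 69.3, 118, 71.5 and 68.0 CPM in the high columns, against 37.9, 16.1, 3.93 and 7.24 CPM in the low columns. Columns 10 and 8 were intermediate and columns 3 and 4 lowest, and the log2 ratio was 2.58 (1.95 to 3.26). Kif18a, the kinesin that damps chromosome movement, had 87.5, 126, 105 and 52.5 CPM in the high columns, against 40.6, 16.1, 0 and 29.0 CPM in the low columns, a log2 ratio of 2.44 (1.86 to 3.06). In column 3 it had no count, which allows up to 5.90 CPM. Nusap1, which bundles spindle microtubules, had 117, 198, 210.4 and 127 CPM in the high columns, against 65.0, 50.9, 7.87 and 7.24 CPM in the low columns, a log2 ratio of 2.43 (1.99 to 2.90). Columns 3 and 4 were both under 8 CPM for Nusap1. Leaving out columns 3 and 4 gave ratios of 1.80 for Troap, 1.86 for Kif18a and 1.58 for Nusap1. Without column 10 they were 3.44 for Troap and 3.09 for Kif18a.

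Ckap2l, whose promoter is printed above, had 189.6, 227, 206 and 114 CPM in the high columns, against 65.0, 102, 5.90 and 14.5 CPM in the low columns. The groups were apart, between column 2 and column 8, and the log2 ratio was 2.12 (1.74 to 2.51). Fam83d, which brings casein kinase 1 to the spindle, had 146, 228, 126 and 148 CPM in the high columns, against 54.2, 77.7, 33.4 and 21.7 CPM in the low columns, a log2 ratio of 1.97 (1.60 to 2.36). Depdc1a had 83.9, 86.2, 46.3 and 27.8 CPM in the high columns, against 27.1, 18.7, 0 and 3.62 CPM in the low columns, and the kinesin Kif14 had 47.4, 88.6, 37.9 and 30.9 CPM in the high columns, against 19.0, 24.1, 1.97 and 0 CPM in the low columns. Both were apart, with log2 ratios of 2.55 (1.82 to 3.35) and 2.51 (1.77 to 3.35), although column 2 lay close to column 10 for Depdc1a. The 1 member that was lower was Kif5b, a kinesin of cargo transport, at -0.44 (-0.64 to -0.24), and its columns overlapped. The ratios without columns 3 and 4 were 1.23 for Ckap2l, 1.49 for Fam83d, 1.59 for Depdc1a and 1.56 for Kif14. Without column 8 they were 2.87 for Ckap2l and 3.20 for Kif14, without column 9 1.78 for Kif14, and without column 10 3.32 for Depdc1a.

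Of the kinetochore and checkpoint list, 38 of 41 members were higher, with a median of 0.89, and 15 were apart. Knl1, the scaffold on which the checkpoint kinase Bub1 docks, had 135, 196, 118 and 102 CPM in the high columns, against 92.1, 50.9, 0 and 0 CPM in the low columns. It had no count in columns 3 and 4, which allows up to 5.90 and 10.9 CPM there, and the level was 157 CPM (139 to 177) over the high columns and 34.7 CPM (26.0 to 45.4) over the low columns. The log2 ratio of 2.18 (1.75 to 2.63) became 1.14 without columns 3 and 4. Spdl1 had 65.6, 119, 63.1 and 80.3 CPM in the high columns, against 51.4, 21.4, 0 and 21.7 CPM in the low columns, a log2 ratio of 2.14 (1.59 to 2.73), and was apart by the gap between column 6 and column 10. Cenpl, a subunit of the constitutive centromere network, had 69.3, 80.3, 50.5 and 64.9 CPM in the high columns, against 29.8, 13.4, 0 and 3.62 CPM in the low columns, a log2 ratio of 2.68 (1.94 to 3.51). For Spdl1 and Cenpl the ratios without columns 3 and 4 were 1.39 and 1.73. Column 10 held most of what the low columns had of these 3 genes, and without it the ratios were 3.26 for Knl1, 2.98 for Spdl1 and 3.78 for Cenpl.

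Checkpoint and cohesion proteins of the same list were higher as well. Bub1b (BubR1), a checkpoint kinase-like protein, had 65.6, 189, 88.4 and 61.8 CPM in the high columns, against 59.6, 45.5, 25.6 and 3.62 CPM in the low columns. Column 9 was more than 2-fold above every other column, while columns 2 and 10 were close, at 61.8 and 59.6 CPM, so the groups were barely apart. The log2 ratio of 1.91 (1.47 to 2.37) became 1.03 without column 9 and 1.31 without columns 3 and 4. Sgo2a, a protector of centromeric cohesion, had 91.2, 199.6, 122 and 80.3 CPM in the high columns, against 48.7, 50.9, 11.8 and 39.8 CPM in the low columns, a log2 ratio of 2.07 (1.64 to 2.52) that became 1.44 without column 9. Cenpa, the histone H3 variant of centromeres, had 376, 405, 614 and 399 CPM in the high columns, against 374, 228, 317 and 127 CPM in the low columns, and was apart only by the narrow gap between column 7 and column 10, with a log2 ratio of 0.64 (0.47 to 0.82). Aurkb, the kinase of the chromosomal passenger complex, had 168, 214, 177 and 151 CPM in the high columns, against 94.8, 139, 7.87 and 25.3 CPM in the low columns, a log2 ratio of 1.56 (1.23 to 1.90), and was apart more widely. Cenpa and Aurkb were picked after their values were seen. The members that were lower were Cenpt, Zwint and Cenpn, none of them apart.

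Among genes of condensin, cohesion and chromatin, 33 of 36 members were higher, with a median of 0.67, and 8 were apart. Kpna2, an importin, had 423, 453, 425 and 318 CPM in the high columns, against 173, 230.3, 94.4 and 50.7 CPM in the low columns, a log2 ratio of 1.59 (1.37 to 1.82). Hmgb2, a chromatin protein of the HMG box family, had 309.9, 268, 349 and 182 CPM in the high columns, against 157, 150.0, 39.3 and 57.9 CPM in the low columns, a log2 ratio of 1.46 (1.19 to 1.73). Both were apart, and columns 3 and 4 were the lowest for each. Without these 2 columns the ratios were 1.05 for Kpna2 and 0.81 for Hmgb2. The members that were lower were Smc3, Ncapd3 and Ncapg2. Over all 4 lists the 10 members that were lower had log2 ratios from -0.76 for Cenpt to -0.04 for Arpp19, and none was apart.

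**Figure D4:**
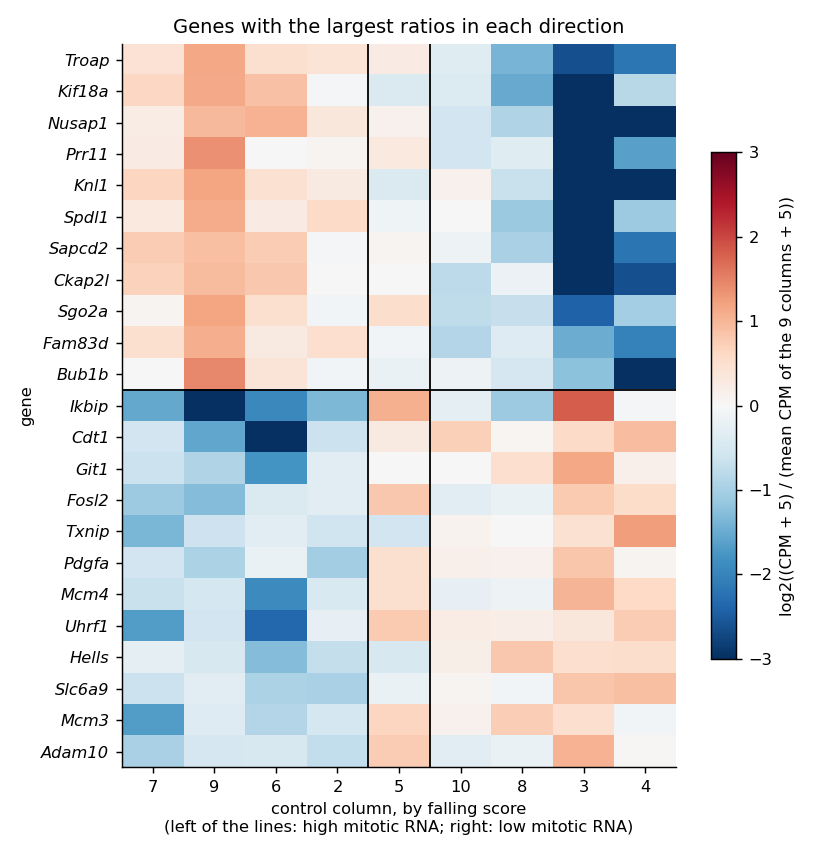
Each cell gives log2 of (CPM + 5) over (the mean CPM of the 9 control columns + 5), for 11 of the 12 highest and the 12 lowest ratios among genes apart, with columns in order of falling score. Column 3 carries the lowest or next to lowest value of the upper 11 genes, the middle column 5 lies above columns 3 and 4 for all 11, and among the lower 12 it is the highest or next to highest for Ikbip, Pdgfa, Adam10, Uhrf1, Fosl2 and Mcm3.

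Of the 12 genes with the highest ratios, Prr11 and Sapcd2 were on none of the lists. Prr11, a proline-rich protein needed for the cycle to proceed, had 80.2, 182, 67.3 and 71.1 CPM in the high columns, against 43.3, 50.9, 3.93 and 18.1 CPM in the low columns, a log2 ratio of 2.22 (1.73 to 2.73). Sapcd2, which acts in the orientation of the spindle, had 146, 161, 147 and 80.3 CPM in the high columns, against 75.8, 40.2, 3.93 and 14.5 CPM in the low columns, a log2 ratio of 2.13 (1.69 to 2.61). Their ratios without columns 3 and 4 were 1.44 for Prr11 and 1.28 for Sapcd2, without column 9 1.41 for Prr11, and without column 10 2.96 for Sapcd2. Both were apart, and column 3 held under 4 CPM of each, below the 5.90 CPM that 3 counts stand for there. On GRCm38 (GENCODE vM21), Troap lies at chr15:99074575-99083409, Kif18a at chr2:109280738-109341747 and Nusap1 at chr2:119618298-119651244, all on the plus strand. The Troap, Kif18a, Nusap1, Ckap2l and Sgo2a genes overlap another gene on the opposite strand in that annotation, among them Mettl15 for Kif18a, Oip5 for Nusap1 and Kctd18 for Sgo2a, and no source used here says whether counting used strand, so reads of these partners cannot be told apart.

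Genes of S phase went the other way in part. Of 70 members of the S phase and replication list, 49 were lower and 21 higher, with a median log2 ratio of -0.38, and 16 were at least 2-fold lower against 1 at least 2-fold higher. Apart and lower were 9 members, Ung, Cdt1, Mcm4, Uhrf1, Hells, Mcm3, Slbp, Dtl and Rpa2, and none was apart and higher. Without columns 3 and 4 the median was -0.58. The summed level of the list overlapped, at 4952, 5136, 4052 and 5297 CPM in the high columns, against 6179, 8418, 4987 and 5253 CPM in the low columns, with 7470 CPM in the middle column, where columns 10, 8 and 5 held the most and columns 3 and 4 lay within the range of the high columns.

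Licensing factors, which load the replicative helicase before S phase, were among the lowest ratios. Cdt1, the loader of the MCM helicase, had 32.8, 14.2, 0 and 30.9 CPM in the high columns, against 86.7, 53.6, 78.7 and 101 CPM in the low columns. The groups were apart, column 6 had no count (up to 12.6 CPM), and the log2 ratio was -2.09 (-2.71 to -1.51). Mcm4, a helicase subunit, had 47.4, 52.0, 16.8 and 55.6 CPM in the high columns, against 65.0, 69.6, 163 and 119 CPM in the low columns, a log2 ratio of -1.21 (-1.62 to -0.82) that became -0.52 without columns 3 and 4. Mcm3, another subunit, had 29.2, 77.9, 54.7 and 71.1 CPM in the high columns, against 114, 177, 149.5 and 97.7 CPM in the low columns, a log2 ratio of -1.08 (-1.43 to -0.74). Both were apart, and the other subunits Mcm2, Mcm5, Mcm6 and Mcm7 had log2 ratios of -0.97, -1.07, -1.13 and -0.95 with overlapping columns. Cdc6, the partner of Cdt1 in loading, had 7.29, 1.18, 12.6 and 6.18 CPM in the high columns, against 35.2, 42.9, 5.90 and 79.6 CPM in the low columns. Column 3 lay among the high columns for Cdc6, so the groups overlapped, with a log2 ratio of -2.89 (-4.18 to -1.81).

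The lowest ratio of the list was that of Ung, the uracil DNA glycosylase, with 3.65, 1.18, 0 and 3.09 CPM in the high columns, against 32.5, 61.6, 37.4 and 50.7 CPM in the low columns. Its RNA was at or near 0 in all 4 high columns and present in all low columns and the middle one, at 57.3 CPM. The level was 1.78 CPM (0.368 to 5.21) over the high columns and 44.5 CPM (34.6 to 56.4) over the low columns, and the log2 ratio was -4.64 (-6.96 to -3.03). Over the high columns this rests on 3 counts, and the ratio was -4.72 without columns 3 and 4. Ung lies at chr5:114130386-114139323 and Cdt1 at chr8:122568015-122573554 on GRCm38, both on the plus strand, and Cdt1 overlaps the gene model Gm20388 on the same strand. Uhrf1, which guides maintenance methylation of DNA, had 43.8, 99.2, 25.2 and 127 CPM in the high columns, against 176, 174, 191 and 261 CPM in the low columns, a log2 ratio of -1.20 (-1.50 to -0.91). Hells, a chromatin remodeller of the same process, had 47.4, 41.3, 21.0 and 34.0 CPM in the high columns, against 67.7, 107, 86.6 and 86.9 CPM in the low columns, a log2 ratio of -1.19 (-1.65 to -0.75). Uhrf1 and Hells were apart, and column 6 was the lowest for both. Slbp, which binds the stem-loop of histone mRNA, Dtl, an adaptor of the ligase that destroys Cdt1, and Rpa2, a single-strand binding subunit, were apart by less, with log2 ratios of -0.91, -0.79 and -0.62.

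Cyclin E genes, which drive entry into S phase, were lower without being apart, at -1.27 (-1.81 to -0.74) for Ccne1 and -1.69 (-2.39 to -1.03) for Ccne2. Other members of the list had ratios near or above 0, among them the polymerase subunits Pold2 at 0.58 (0.26 to 0.90) and Pola1 at 0.80 (0.18 to 1.44), and the helicase factor Ticrr at 1.37 (0.71 to 2.07), the only member at least 2-fold higher. In each of these 3 column 3 was the lowest or among the lowest, with 59.0, 1.97 and 3.93 CPM. Column 3 thus held much Mcm4 and Mcm3 (163 and 149.5 CPM) and little Tk1 (13.8 CPM, against 179 CPM in column 8). The S phase sum ran from 4987 to 8418 CPM within the low group alone. The members outside the named set were picked after their values were seen.

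Rrm2, the target of the study's knockdown, had 467, 439, 652 and 476 CPM in the high columns, against 431, 621, 356 and 369 CPM in the low columns and 576 CPM in the middle column. The groups overlapped, and the log2 ratio of 0.12 (-0.03 to 0.27) included 0. Replication-dependent histone genes overlapped as well, with summed levels of 357, 167, 173 and 374 CPM in the high columns, against 368, 364, 116 and 138 CPM in the low columns from 61 genes, of which 3 reached 20 CPM. An oligo dT primer does not capture mRNA without a poly(A) tail, which is the usual form of these transcripts. H2bc4 had the largest ratio of the 3, with 76.6, 44.9, 4.21 and 167 CPM in the high columns, against 48.7, 29.5, 29.5 and 18.1 CPM in the low columns, and overlapped.

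Among cyclins, CDKs and RB family members of G1, 9 of 23 were higher, with a median of -0.14 that became 0.05 without column 9. Cdkn2d (p19INK4d), an inhibitor of Cdk4 and Cdk6, was the 1 member apart, with 171, 126, 114 and 114 CPM in the high columns, against 70.4, 104, 3.93 and 32.6 CPM in the low columns, a log2 ratio of 1.38 that became 0.57 without columns 3 and 4 and 2.02 without column 8. Cdkn1a (p21), an inhibitor of cyclin-dependent kinases, had 106, 111, 105 and 235 CPM in the high columns, against 271, 201, 331 and 159 CPM in the low columns, a log2 ratio of -0.93 (-1.17 to -0.69). Column 2 lay above columns 8 and 4, so the groups overlapped. Of the p53 target list, 7 of 15 members were higher and none was apart, and Plk3, the member with the largest ratio, had 65.6, 33.1, 8.42 and 46.4 CPM in the high columns, against 16.2, 26.8, 17.7 and 18.1 CPM in the low columns.

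Genes of hypoxia and glycolysis were lower in the high columns for 30 of 31 members, with a median of -0.52, but only Gpi1 was apart. Gpi1, the isomerase of glycolysis, had 408, 414, 497 and 498 CPM in the high columns, against 604, 512, 525 and 572 CPM in the low columns, a log2 ratio of -0.32 (-0.46 to -0.17). Larger ratios stood in hypoxia targets whose columns overlapped. Ndrg1 had 87.5, 119, 84.2 and 235 CPM in the high columns, against 263, 158, 366 and 735 CPM in the low columns, a log2 ratio of -1.44 (-1.67 to -1.21), and carbonic anhydrase 9 (Car9) had 72.9, 285, 25.2 and 151 CPM in the high columns, against 349, 185, 433 and 648 CPM in the low columns, a log2 ratio of -1.06 (-1.26 to -0.86). Column 4 was the highest for both, and column 9 or 2 lay among the low columns. Both were picked after their values were seen. Vegfa, picked likewise, had 21.9, 14.2, 88.4 and 111 CPM in the high columns, against 78.5, 93.7, 246 and 127 CPM in the low columns, a log2 ratio of -1.72 (-2.12 to -1.33). Without columns 3 and 4 the median of the list was -0.30. Abundant glycolytic genes were lowest in column 9, the deepest, with 644 CPM of Gapdh against 1119 to 1202 CPM in the other high columns and 978 to 1531 CPM in the low columns, and the part of depth in this was not tested.

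Ribosomal protein genes were lower in the high columns for 85 of 88 members, with a median of -0.26, and mitochondrially encoded genes for 11 of 12, with a median of -0.32. Ribosomal protein genes summed to 70692, 42187, 76881 and 60611 CPM in the high columns, against 75417, 68688, 50536 and 78192 CPM in the low columns. Column 9 of the high group and column 3 of the low group, the deepest, held the least. Without column 9 the medians were 0.05 for ribosomal protein genes and -0.04 for mitochondrially encoded genes. None of either list was apart, and the part of depth was not tested.

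Genes of cholesterol synthesis were higher for 19 of 21 members, with a median of 0.52, and none was apart. Idi1, an isomerase of the pathway, had 25.5, 128, 42.1 and 40.2 CPM in the high columns, against 21.7, 45.5, 11.8 and 21.7 CPM in the low columns, a log2 ratio of 1.76 (1.23 to 2.32). Column 9 alone stood above the low columns, and the ratio became 0.57 without it. The median of the list became 0.11 without column 9. Tubulins were higher for 10 of 11 members, with a median of 0.64 that became 0.09 without columns 3 and 4. Tuba1c, an alpha tubulin, had 412, 423, 442 and 386 CPM in the high columns, against 344, 295, 110.2 and 167 CPM in the low columns, was apart, and had a log2 ratio of 0.91 (0.72 to 1.10), or 0.38 without columns 3 and 4; near-identical copies may share its reads, so its count is uncertain.

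Proteasome genes were higher for 22 of 31 members, by a median of only 0.21, with Psmd14, Psma4 and Psmc6 apart. Psmd14, the deubiquitinase of the lid, had 343, 299, 299 and 297 CPM in the high columns, against 255, 249, 161 and 174 CPM in the low columns, a log2 ratio of 0.56 (0.35 to 0.76). Without column 4 the median of the list was 0.09. Genes of nucleolar ribosome biogenesis were higher for 29 of 34 members, with a median of 0.32 and 1 apart, Nop16, at 0.73 (0.47 to 1.01). Their median was 0.16 without column 9. These ratios are small beside those of the G2 and mitosis lists.

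Immediate early genes were lower for 13 of 18 members, with a median of -0.36 that became -0.18 without column 4. Fosl2, a partner of Jun in AP-1, was the 1 apart, with 51.0, 43.7, 84.2 and 89.6 CPM in the high columns, against 92.1, 99.1, 201 and 170.1 CPM in the low columns, a log2 ratio of -1.28 (-1.63 to -0.93) that became -0.69 without columns 3 and 4. Of actin and adhesion genes 12 of 29 were higher, and Tpm4, a tropomyosin, was apart and lower at -0.32 (-0.51 to -0.13). None was apart among stress response genes, integrated or of unfolded proteins (16 of 37 higher), chaperones (11 of 26), extracellular matrix (8 of 20), splicing factors (20 of 40), senescence and cytokines (1 of 7) and fibroblast markers (2 of 5). Medians of these 6 lists lay between -0.28 and 0.02. The members with the largest ratio were Slc7a11 at -1.27, Dnajb4 at -1.37, Fn1 at -1.35, Sf3a1 at 0.86, Cxcl1 at -0.84 and Col1a1 at -0.72, all with overlapping columns, and Slc7a11 turned to 0.38 without columns 3 and 4. Without column 9 Cxcl1 turned to 0.05, and without column 10 to 1.05. Dnajb4 was at -0.56 and Fn1 at -0.20 without columns 3 and 4.

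Outside the cycle lists, 6 of the 12 lowest ratios belonged to genes of no list. These genes were named because they were apart with low ratios, which some genes may be in an arbitrary split too. Ikbip had 18.2, 2.36, 12.6 and 21.6 CPM in the high columns, against 51.4, 26.8, 232 and 61.5 CPM in the low columns, with 138 CPM in the middle column. The groups were apart by the gap between column 2 and column 8, column 3 was far above the other low columns, and the log2 ratio of -3.41 (-4.22 to -2.69) became -2.16 without column 3, -2.58 without column 9 and -1.95 without columns 3 and 4. Pdgfa, the growth factor subunit PDGF-A, had 113, 85.0, 147 and 80.3 CPM in the high columns, against 189.6, 187, 305 and 181 CPM in the low columns, a log2 ratio of -1.21 (-1.49 to -0.94). Adam10, a sheddase of the cell surface, had 113, 158, 159.9 and 133 CPM in the high columns, against 179, 196, 468 and 232 CPM in the low columns, a log2 ratio of -0.98 (-1.21 to -0.75) that became -0.36 without columns 3 and 4. Both were highest in column 3.

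Txnip, a thioredoxin-binding protein that limits glucose uptake, had 32.8, 57.9, 71.5 and 58.7 CPM in the high columns, against 100.2, 91.1, 128 and 228 CPM in the low columns, a log2 ratio of -1.22 (-1.59 to -0.86). Git1, a GTPase-activating protein of focal adhesions, had 43.8, 35.4, 16.8 and 55.6 CPM in the high columns, against 70.4, 102, 163 and 79.6 CPM in the low columns, a log2 ratio of -1.54 (-1.98 to -1.12). Slc6a9, a glycine transporter, had 32.8, 42.5, 25.2 and 24.7 CPM in the high columns, against 56.9, 50.9, 100.3 and 105 CPM in the low columns, a log2 ratio of -1.16 (-1.64 to -0.70). All 3 were apart, and columns 3 and 4 held the most of Txnip and Slc6a9. Txnip, Pdgfa and Slc6a9 overlap genes on the opposite strand, so reads of these partners cannot be told apart.

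The knock columns, which the choice of the groups did not use, were split by the same score. They are cells of the same sample, so the split is no replicate. The score was 4170, 3676, 3460 and 3293 CPM in the 4 highest (knock columns 2, 8, 4 and 7), against 2730, 1931, 1925 and 1729 CPM in the 4 lowest (knock columns 1, 5, 3 and 10), in a range less wide than in the control cells at the low end. Of 4879 genes at 50 CPM or more, 139 (2.85%) were apart and higher and 175 (3.59%) apart and lower, 29 (0.594%) were at least 2-fold higher and 96 (1.97%) at least 2-fold lower. Both descriptions held for 22 that were higher (0.451%) and 60 that were lower (1.23%). Of the G2 and mitosis lists, 125 of 141 members were higher, with a median log2 ratio of 0.50 and 50 apart, against 2 apart and lower. Apart and higher were 190 of 8002 genes at 20 CPM or more (2.37%), and 232 were apart and lower (2.90%). Of these 8002 genes, 3567 (44.6%) were higher and 4435 lower.

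The summed level of the G2 and mitosis lists was 22982, 20237, 21116 and 20639 CPM in the 4 highest-score knock columns, against 14662, 14415, 14731 and 15753 CPM in the 4 lowest. The groups were apart, as in the control cells, and none of the lowest knock columns was as low as control columns 3 and 4. Spindle motors and midzone proteins again had the highest median of the 4 lists, 0.92, with 20 of 36 apart.

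All 12 genes with the highest ratios in the control cells were higher in this split too, with a median of 1.06, and 6 of them were apart, among them Troap, Kif18a, Nusap1, Ckap2l and Sgo2a. Nusap1 had 137, 128, 187 and 132 CPM in the 4 highest-score knock columns, against 95.9, 49.2, 42.6 and 17.7 CPM in the 4 lowest, a log2 ratio of 1.92 (1.52 to 2.33). Troap had 97.4, 103, 67.6 and 83.8 CPM in the 4 highest-score knock columns, against 45.4, 25.7, 10.6 and 24.5 CPM in the 4 lowest, a log2 ratio of 1.82 (1.30 to 2.36). Knl1 overlapped, with 97.4, 119.8, 93.7 and 80.6 CPM in the 4 highest-score knock columns, against 106, 38.5, 50.6 and 110.1 CPM in the 4 lowest. The ratio of Knl1, 0.33 (-0.03 to 0.68), was the lowest of the 12.

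Of the 12 genes with the lowest ratios in the control cells, 9 were lower, with a median of -0.30, and Pdgfa and Adam10 were apart. Adam10 had 106, 103, 133 and 135 CPM in the 4 highest-score knock columns, against 404, 259, 338 and 148 CPM in the 4 lowest, a log2 ratio of -1.02 (-1.29 to -0.76). Pdgfa had 111, 174, 196 and 161 CPM in the 4 highest-score knock columns, against 257, 229, 293 and 217 CPM in the 4 lowest, a log2 ratio of -0.52 (-0.76 to -0.28). Ikbip had 17.7, 42.8, 48.0 and 83.8 CPM in the 4 highest-score knock columns, against 141, 118, 133 and 61.2 CPM in the 4 lowest, a log2 ratio of -1.01 (-1.44 to -0.59), and overlapped through columns 7 and 10. The licensing genes did not repeat the gap between groups. Cdt1 had 44.3, 68.4, 65.4 and 29.0 CPM in the 4 highest-score knock columns, against 20.2, 36.4, 34.6 and 109 CPM in the 4 lowest, and column 10, the lowest by score, held the most Cdt1, Mcm3 and Mcm4 of these 8 columns. Of the S phase list 44 of 68 were lower, with a median of -0.18, beside 4435 of all 8002 genes at 20 CPM or more. None of the list was apart and lower, and 1 was apart and higher.

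Over all 142 genes apart and higher in the control cells, 113 (79.6%) were higher in the split of the knock cells and 35 (24.6%) apart and higher. Of all 5261 genes, 46.1% were higher there and 2.62% apart and higher. Of the 57 apart and lower, 39 (68.4%) were lower and 4 (7.02%) apart and lower, beside 53.9% and 3.40% of all genes. Other lists differed between the splits without a test of the difference. Hypoxia and glycolysis genes had a median of -0.02 in the knock cells and -0.52 in the control cells, cholesterol synthesis genes -0.05 and 0.52, and ribosomal protein genes 0.22 and -0.26. The 4 lowest-score knock columns held the deepest column, 10, with 735871 counts, and the part of depth in these medians was not tested.

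**Figure D5:**
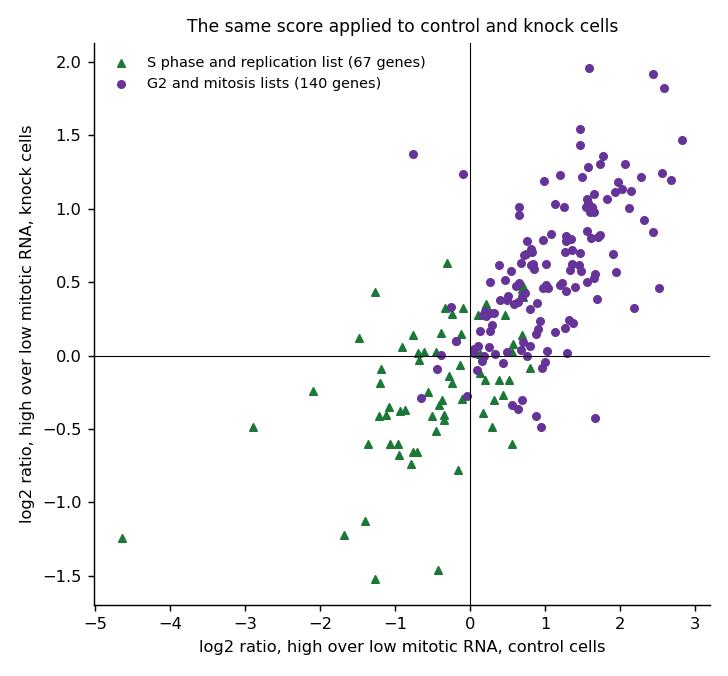
Each point is a gene of the G2 and mitosis lists (140 genes, purple circles) or of the S phase list (67 genes, green triangles), with the log2 ratio of high over low mitotic RNA in control cells on the x axis and in knock cells on the y axis. Most purple circles lie above 0 on both axes with lower values in the knock cells, while green triangles lie on both sides of 0 in the knock cells.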

How the data were processed

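The authors deposited whole-number counts for each gene in each column of the CBTi-seq table, which its name ties to UMIs, and nothing in the values points to a normalization. Per the submitters' processing notes, the tools were STAR 2.7.11b, Picard and FastQC; the notes name builds GRCm38 and GRCh38 but no role of either. How reads were counted, filtered and assigned to a strand was not given in the sources used here. Tables of the 3' method were left out.

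From the deposited counts, CPM was computed on the total of all 20717 rows. Among them, 22 symbols had been turned into dates (0.198% of the counts of the 8 columns); they stayed in the totals and are not named. Doublets were not assessed. Per the protocols single cells were drawn into a capillary, and whether any column held more than 1 cell was not tested. The control columns 2 to 10 were ranked by the score, and counts were summed over the 4 highest and the 4 lowest. With columns of 1 sample, no test was made. Genes at a mean of 50 CPM or more over the 9 columns were counted as 2-fold different or as apart in all columns, and list members at 20 CPM or more, a median of 39 counts per column and gene at the first limit. Intervals are at 95% and a count of 0 allows up to 3 counts; amplified molecules may not be independent, so both cover counting error only.

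The members, the lists and the rules were chosen with earlier results of these data known. Named genes are the 12 largest ratios in each direction among genes apart, leaving out score genes, date symbols and unnamed gene models; up to 3 members apart per list with the largest ratio, or the largest ratio where none was apart; the score genes; and Rrm2. Of the 12 highest ratios, 1 gene is not reported here. All other genes named were picked after their values were seen. Newer symbols of histone genes were matched after seeing the table. Loci are from GENCODE vM21 (GRCm38, 1-based), found for 63 of 64 named genes, and 26 of them overlap another gene. Promoters are from RefSeq (GRCm38.p6).

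Alternatives were factors by TMM (edgeR 4.0.16) or by median of ratios (DESeq2 1.42.0), CPM averaged over columns, totals without mitochondrially encoded and ribosomal protein genes, other limits on the level, thinning to 237639 counts, correction for UMI collisions with 1024 or 4096 tags, 3 columns a group, equal weights of the score genes, control column 1 added, and leaving out columns. The calculation was tested on simulated counts with known ratios and counting error alone. These held no spread among cells and no choice of columns by a score, so they check only the arithmetic and the counting intervals. Python 3.11.15 with scipy 1.17.1, pandas 2.3.3, numpy 2.4.6 and matplotlib 3.10.9 was used besides R 4.3.3.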

Additional observations from a re-analysis of the deposited data

Results flagged for a closer look

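In 9 of 158 groups of 4 control columns examined, 1 column lay far from the other 3 by Dixon's criterion at 95%, which chance alone gives in about 1 of 20 groups. In the high group, column 9 held 118 CPM of Troap (68.0 to 71.5 CPM in the other 3), 182 CPM of Prr11 (67.3 to 80.2 CPM), 189 CPM of Bora (135 to 142 CPM) and 128 CPM of Idi1 (25.5 to 42.1 CPM). Column 7 held 343 CPM of Psmd14 (297 to 299 CPM). Column 2 held 142 CPM of macrophage markers (21.0 to 32.8 CPM) and 6.18 CPM of epithelial markers, which had no count in the other 3; 3 counts are 9.27 CPM in that column. In the low group, column 3 held 232 CPM of Ikbip (26.8 to 61.5 CPM) and 305 CPM of Pdgfa (181 to 189.6 CPM). Column 9 is the deepest of the high columns and column 3 of the low columns, and the part of depth in these values was not tested.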

How the results depend on the processing

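No paired analysis was possible because the compared columns belong to 1 sample and to 1 named group, and no test was made. Of 1188 ratios of 54 named genes under 22 alternatives, 1067 lay within the counting interval of the reported ratio and 121 outside, and none of a gene apart changed sign; of 418 list medians, 410 moved by less than the spread between columns. The 41 named genes apart all remained so in the settings tried except thinning (33), column 1 added (28), TMM (38) and median-of-ratios factors (39), and totals without mitochondrially encoded and ribosomal protein genes (40). Leaving out columns, 3 columns a group, other limits on the level and CPM averaged over columns could not change this, by construction. Equal weights picked the same columns. Of the other settings, only the corrections for UMI collisions kept all 41. Median-of-ratios factors shifted the median of all genes by -0.11 and gave 129 genes 2-fold lower. Limits on the level set the counts by construction: 432 and 325 genes 2-fold higher and lower and 99 apart and lower at 20 CPM; 31, 20, 69 (apart and higher) and 32 (apart and lower) at 100 CPM; with no limit, 3428 genes at least 2-fold higher, 3795 genes at least 2-fold lower, and 275 and 172 apart. Fewer columns part more easily: 3 against 3 gave 238 and 161 genes 2-fold higher and lower, and 330 and 218 apart. Adding column 1 gave 145 genes 2-fold lower and turned the median of the senescence and cytokine list to 0.029, against -0.28. Leaving out columns 3 and 4, an alternative chosen after seeing the data, gave 36 genes 2-fold lower, 379 apart and higher, 248 apart and lower and a median of 0.61 for the G2 and mitosis lists. Leaving out 1 column gave 86 (without column 9) to 219 (without column 8) genes 2-fold higher, 50 (without column 3) to 147 (without column 10) 2-fold lower, 174 to 318 apart and higher, 92 to 133 apart and lower, medians of 0.82 to 1.19 for the G2 and mitosis lists and of -0.49 to -0.30 for the S phase list. Depth limits what can be said of genes near 3 counts a column; the highest counts were 534 to 623 in columns of any depth, and their part in the CPM of abundant genes was not tested.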

Other observations

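Of the 96 genes apart and higher that stood on no list, 5 are described here. They were picked by hand after their values were seen, and they do not stand for the others. Pcnt, a scaffold of the pericentriolar material, had 54.7, 89.7, 67.3 and 71.1 CPM in the high columns, against 48.7, 40.2, 17.7 and 29.0 CPM in the low columns, a log2 ratio of 1.24 (0.76 to 1.74). Cep192, which recruits Aurora A and Plk4 to centrosomes, had 54.7, 68.5, 84.2 and 58.7 CPM in the high columns, against 29.8, 45.5, 15.7 and 36.2 CPM in the low columns, a log2 ratio of 1.14 (0.64 to 1.67). Rangap1, the activator of the Ran GTPase that sits at pores and kinetochores, had 339, 275, 236 and 241 CPM in the high columns, against 198, 171, 120.0 and 94.1 CPM in the low columns, a log2 ratio of 0.90 (0.67 to 1.14). For all 3 the middle column 5 lay at 65.5, 65.5 and 185 CPM.

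Suv39h1, a histone H3 methyltransferase of heterochromatin, had 139, 135, 46.3 and 49.4 CPM in the high columns, against 35.2, 37.5, 25.6 and 29.0 CPM in the low columns, a log2 ratio of 1.76 (1.29 to 2.25). G2e3, a ubiquitin ligase named for its expression in G2, had 87.5, 178, 173 and 117 CPM in the high columns, against 51.4, 83.0, 37.4 and 25.3 CPM in the low columns, a log2 ratio of 1.60 (1.23 to 1.99). Among genes apart and lower, Dut, the enzyme that clears dUTP, had 157, 158, 101 and 124 CPM in the high columns, against 179, 265, 175 and 195 CPM in the low columns, a log2 ratio of -0.49 (-0.74 to -0.25), and the integrin subunit Itgav had 94.8, 69.7, 92.6 and 80.3 CPM in the high columns, against 97.5, 142, 185 and 167 CPM in the low columns, a log2 ratio of -0.92 (-1.24 to -0.61). Neither of these was on a list.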
